A study of Mus musculus with 12 samples.

Results

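The genes described here encode the machinery that starts and carries out DNA replication: the origin recognition complex, the replicative helicase and its loaders and activators, the polymerases, the sliding clamp and its loader, the single-strand binding protein, the enzymes that join Okazaki fragments and the enzymes that supply deoxynucleotides. The list has 43 genes, chosen by symbol, out of 38087 gene rows with an Ensembl identifier, and each of the 43 has a row in the files. Messenger RNA was sequenced from mouse colonic mucosa in 12 libraries, 6 from wild type mice and 6 from mice labelled Sgo1 -/+ (written Sgo1-/+). Sgo1 encodes shugoshin, which protects the cohesion of sister centromeres. All animals had been given the colon carcinogen azoxymethane (4 mg/kg of body weight, 2 times a week) from 8 to 12 weeks of age, and mucosa was taken at 9 months, so that no library here comes from untreated tissue. The labels give neither the strain nor the kind of Sgo1 allele, and they do not tell whether the 6 libraries of a genotype are 6 animals, so p-values here speak only to the spread between libraries.

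In each cell cycle, the origin recognition complex marks origins, and CDC6 and CDT1 load the MCM2-7 ring onto them in G1. In S phase, CDC45 and the GINS complex join that ring and make it an active helicase, polymerase alpha with primase lays down primers, and polymerases epsilon and delta extend them with the help of the clamp PCNA. In the colon, dividing cells sit in the lower part of the crypt while the surface cells have left the cycle, so that in bulk mucosa the transcripts of S phase come from a minority of cells. Fewer dividing cells and less RNA per dividing cell cannot be told apart in bulk samples.

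The libraries held 5711553 to 10198304 counts, and the 43 genes together held 1778 to 6377 of them. Depth differed between the genotypes. Wild type replicate 2 held 9000763 counts and the other wild type libraries 5711553 to 7923578. Sgo1-/+ replicate 3 held 6029276 and the other Sgo1-/+ libraries 8499001 to 10198304. The level of Sgo1, listed as Sgol1, was 3.65 ± 1.79 CPM (counts relative to library size, scaled with TMM factors; SD, n = 6) in wild type. It was 2.33 ± 0.408 CPM in the 6 Sgo1-/+ libraries, a difference of -0.49 in mean log2 CPM that did not pass an exact two-sided permutation test (p = 0.126). It was -0.69 without wild type replicate 1 (exact permutation p = 0.0130) but -0.29 when wild type replicate 2 was the one left out (p = 0.251 in the same exact test). Scaling to the library total gave a smaller difference, -0.18 (p = 0.673, exact test). The epithelial gene Epcam ran from 897 to 1449 CPM over all 12 libraries, while the smooth muscle gene Myh11 reached at most 4.53 CPM and the B cell gene Cd79a at most 4.02 CPM. Other genes of these cell types were higher. The 7 smooth muscle genes summed to 19.1 to 28.9 CPM in wild type and 21.1 to 40.4 CPM in Sgo1-/+. The 7 B and plasma cell genes with a row summed to 308 to 424 CPM and 226 to 371 CPM. Counts in 4 mitochondrial-like rows made up 40.6% to 44.0% in 3 libraries (wild type replicates 3 and 5, Sgo1-/+ replicate 3) and 14.3% to 26.4% in the other 9. Among those 9, wild type replicates 1, 4 and 6 were at 23.3% to 26.4% and wild type replicate 2 at 17.7%. Sgo1-/+ replicates 1, 4, 5 and 6 were at 14.3% to 18.4% and Sgo1-/+ replicate 2 at 24.1%. A suffix that the labels do not explain follows the column names of 4 libraries: wild type replicates 1 and 6, and replicates 5 and 6 of Sgo1-/+.

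The main comparison set the replication genes of Sgo1-/+ mucosa against those of wild type. Most were slightly higher in Sgo1-/+, by amounts within the spread of the libraries, and none passed the test across all genes. Cdc45 had the largest difference on the higher side and Orc6 the largest on the lower side. Of the 43 genes, 42 passed the filter on low counts, and Gins1 did not. Of these 42, 33 had a log2 change above 0 and 9 below 0, where 49.0% of all 13889 genes tested had one above 0. Their median log2 change was 0.17, against -0.0057 for all genes tested. No member passed an adjusted p of 0.05 in edgeR, where 0.0% of all genes did and 9.04% had an unadjusted p under 0.05. DESeq2 also called 0 members, with 0.217% of all genes called. It had 3 members at an unadjusted p under 0.05, where 10.19% of all genes were. At an unadjusted p under 0.05 in edgeR, Cdc45 was higher, where 4.31% of all genes were called higher, and Orc6 was lower, where 4.73% were called lower. By that count the members were not called more often than genes at large. No member had groups that did not overlap, and over all genes the share was 0.223% with Sgo1-/+ higher and 0.122% with it lower.

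**Figure D1:**
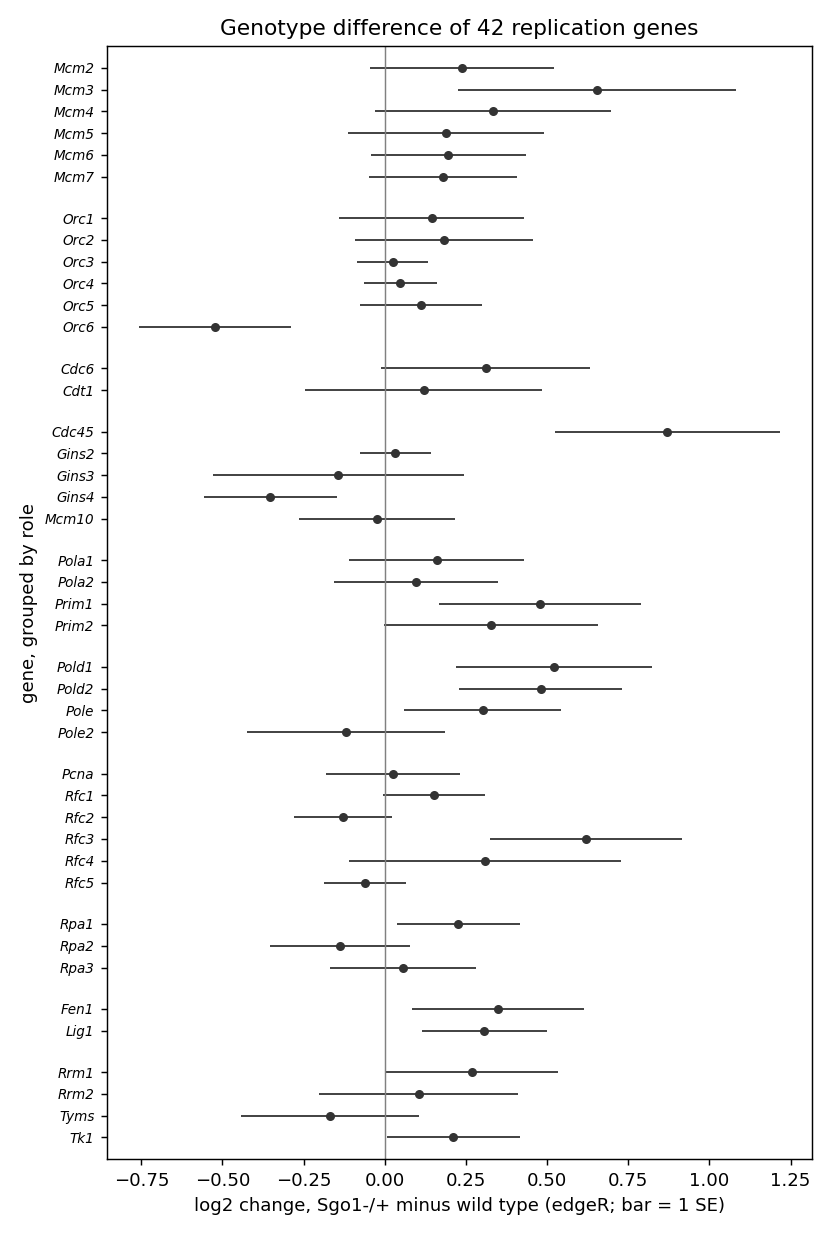
Log2 change between Sgo1-/+ and wild type for the 42 genes tested, from edgeR, grouped by role (x axis: log2 change, bars: 1 SE). Of the 42 points, 33 lie right of 0, and most bars of 1 SE cross 0; Cdc45 (0.87) lies farthest to the right and Orc6 (-0.52) farthest to the left.

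The size of this shift depended on which libraries were compared. Among the 8 libraries without the suffix (4 of each genotype), 23 of 42 members had a log2 change above 0 (49.6% of all genes) and the median was 0.035, with 0 members higher and 1 lower at an unadjusted p under 0.05 in edgeR (1.83% and 2.16% of all genes). Among the 4 libraries with it (2 of each genotype), 36 of 42 did (49.0% of all genes) and the median was 0.51, with 10 members higher at an unadjusted p under 0.05 in edgeR, where 5.28% of all genes were, and 0 lower, where 8.69% were. After adjustment for the share of mitochondrial-like counts (a covariate in the fit), 23 of 42 members were above 0 (47.2% of all genes) and the median was 0.028, with 0 members higher and 1 lower at that level (4.22% and 5.44% of all genes). Without the 3 libraries richest in those rows, 33 of 43 were above 0 (51.9% of all genes), the median was 0.19, and 2 were higher and 1 lower at that level (5.2% and 6.45% of all genes). Wild type replicate 2 pulled the other way. Without it, 37 of 42 members were above 0 (51.4% of all genes), the median was 0.37, and 11 members were higher at an unadjusted p under 0.05 in edgeR (6.95% of all genes) and 0 lower (6.4%). After adjustment 0 of these passed. When wild type replicate 6 was left out, 30 of 42 were above 0 (48.8% of all genes), the median was 0.079, and 0 were higher and 1 lower at that level (3.48% and 4.63% of all genes). What part depth, the suffix or the mitochondrial-like rows have in the difference was not tested beyond these values.

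**Figure D2:**
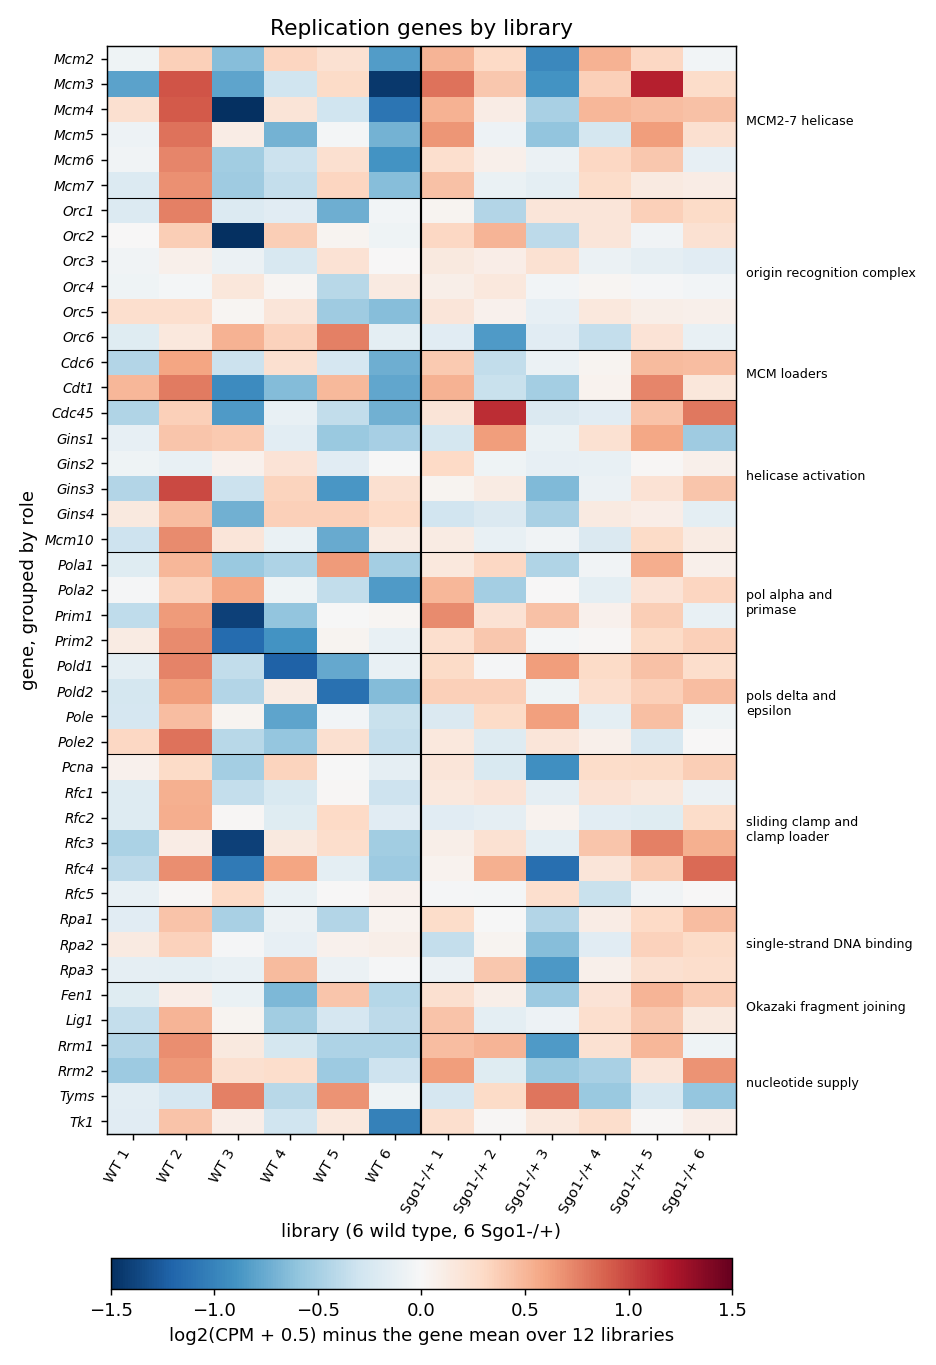
Level of each of the 43 genes in each library, as log2(CPM + 0.5) minus the gene's mean over the 12 libraries (rows: genes grouped by role, columns: libraries, the line parts the genotypes). Wild type replicate 2 is red in most rows, wild type replicates 3 and 6 are blue in most, and rows such as Orc3, Orc4, Gins2 and Rfc5 are pale throughout.

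Many members were high or low in the same libraries. Wild type replicate 2 was above a member's own median in 37 of 42 members, and it was the highest of all 12 libraries in 20 of them. Sgo1-/+ replicates 5, 1 and 6 followed, above the median in 33, 31 and 28 members. The lowest were wild type replicates 1 and 6 and Sgo1-/+ replicate 3, above it in 8, 11 and 11. Wild type replicate 3 was the lowest library in 11 members. Taken as the median deviation of the 42 members from their means, wild type libraries ran from -0.35 to 0.52 log2 and Sgo1-/+ libraries from -0.14 to 0.31, so that the wild type libraries enclosed all those of Sgo1-/+.

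**Figure D3:**
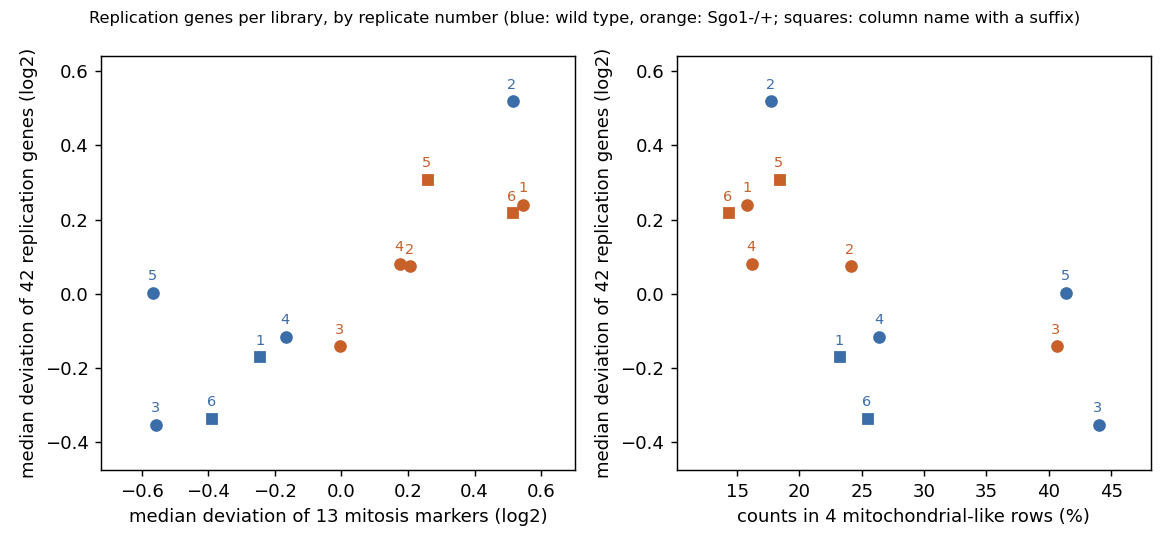
Median deviation of the 42 replication genes in each library (y axis, log2) against that of 13 markers of G2 and mitosis (left, log2) and against the share of counts in 4 mitochondrial-like rows (right, %); numbers are replicates. Wild type replicate 2 is at the top at 0.52, and the 3 libraries with over 40% mitochondrial-like counts are at 0.0018 or below. So are wild type replicates 1, 4 and 6, at -0.17, -0.12 and -0.34, with 23.3% to 26.4% of such counts.

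Markers of dividing cells varied in part over the same libraries. The 13 genes of G2 and mitosis had a median deviation of 0.51 log2 in wild type replicate 2 and of 0.55 and 0.51 in Sgo1-/+ replicates 1 and 6, and of -0.57 and -0.56 in wild type replicates 5 and 3. The replication genes were at 0.0018 in wild type replicate 5 and at -0.35 in wild type replicate 3. Mki67, whose protein marks cycling cells, was at 53.1 to 129 CPM in wild type (median 62.8) and at 90.3 to 135 CPM in Sgo1-/+ (median 99.6). All 13 had a log2 change above 0 with a median of 0.50, and 7 were higher at an unadjusted p under 0.05 in edgeR, beside 1 of the 42 replication genes and 4.31% of all genes. The lowest adjusted p among them was 0.491 in edgeR. The median was thus smaller for the replication genes than for the mitosis markers, a difference that was not tested. Crypt base and progenitor markers were above 0 in 12 of 12, with a median of 0.46, and their summed level ran from 271 to 532 CPM in wild type and from 327 to 644 CPM in Sgo1-/+. Absorptive colonocyte markers were below 0 in 11 of 12, with a median of -0.28, and Krt20, a keratin of surface cells, had a wild type median of 1055 CPM and an Sgo1-/+ median of 756 CPM. Lymphocytes also divide. The 10 T and NK cell genes summed to 17.0 to 31.2 CPM in wild type and 11 to 19.4 CPM in Sgo1-/+, and the 7 B and plasma cell genes with a row to 308 to 424 CPM and 226 to 371 CPM. The 6 germinal centre B cell genes summed to 26.1 to 69.6 CPM in wild type, against 25.6 to 40.6 CPM, and the 4 of them tested were below 0, with a median of -0.51. The adipocyte list had the largest median, 2.16 over 5 genes tested, with 3 above 0 and 2 of them at an unadjusted p under 0.05 in edgeR. Its sum ran from 21.9 to 91.7 CPM in wild type and from 6.30 to 189 CPM in Sgo1-/+. None of the genes in these 7 marker lists is at 0 in every library, and the part of these cell types in the replication genes was not tested.

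Promoters were examined because the members varied together and many replication genes are known targets of E2F factors. A RefSeq promoter (build GRCm38.p6, 250 bases before to 50 after the start) was found for 36 of the 43 genes, all but Mcm4, Gins1, Gins2, Gins4, Prim2, Pole and Rfc2. They were searched on both strands for the E2F-type words TTTCCCGC, TTTCGCGC, TTTGGCGC and TTTGCCGC, counting overlapping matches. At least 1 word was present in 14 of the 36, or 38.9%, against 2.61% of 27025 genes with a promoter of the same length. They were Mcm3, Mcm5, Mcm6, Mcm7, Orc1, Orc3, Cdc6, Cdt1, Gins3, Pola1, Pold1, Pole2, Rfc3 and Lig1. CCAAT, a word bound by NF-Y, was present in 63.9% of the 36 and in 41.1% of all. The 14 genes with an E2F-type word had a median log2 change of 0.18 and the 22 without one a median of 0.13, and their median SD of log2 CPM within a genotype was 0.46 and 0.41, differences that were not tested. Orc3, the steadiest in level of the origin recognition genes with Orc4, holds one too. A match is a description and not a bound site. The promoters of Mcm3, Mcm6 and Rfc3, with the words in capitals (as the reverse complement where a word lies on the other strand), are set beside those of Cdc45 and Orc6, the members with the smallest p in each direction, which hold none.
Mcm3, chr1:20820263-20820562, minus strand: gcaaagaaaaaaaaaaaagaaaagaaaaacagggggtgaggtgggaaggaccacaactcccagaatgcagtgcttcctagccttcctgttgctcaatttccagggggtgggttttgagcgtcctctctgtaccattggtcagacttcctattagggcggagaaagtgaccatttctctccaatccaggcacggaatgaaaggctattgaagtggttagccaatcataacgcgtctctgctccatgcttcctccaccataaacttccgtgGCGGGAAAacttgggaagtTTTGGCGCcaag
Mcm6, chr1:128359656-128359955, minus strand: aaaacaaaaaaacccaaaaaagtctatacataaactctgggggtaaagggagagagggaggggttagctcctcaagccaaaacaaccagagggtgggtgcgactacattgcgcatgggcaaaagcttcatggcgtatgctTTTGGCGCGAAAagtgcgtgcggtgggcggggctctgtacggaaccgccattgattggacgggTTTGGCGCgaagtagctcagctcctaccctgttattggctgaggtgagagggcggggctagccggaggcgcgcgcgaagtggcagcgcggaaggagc
Rfc3, chr5:151651159-151651458, minus strand: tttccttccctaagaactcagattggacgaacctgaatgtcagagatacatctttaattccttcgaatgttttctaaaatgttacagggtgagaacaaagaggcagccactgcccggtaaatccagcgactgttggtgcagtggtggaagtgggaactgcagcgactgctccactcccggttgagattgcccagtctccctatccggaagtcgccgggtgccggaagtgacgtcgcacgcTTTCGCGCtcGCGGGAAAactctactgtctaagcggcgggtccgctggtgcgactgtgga
Cdc45, chr16:18811923-18812222, minus strand: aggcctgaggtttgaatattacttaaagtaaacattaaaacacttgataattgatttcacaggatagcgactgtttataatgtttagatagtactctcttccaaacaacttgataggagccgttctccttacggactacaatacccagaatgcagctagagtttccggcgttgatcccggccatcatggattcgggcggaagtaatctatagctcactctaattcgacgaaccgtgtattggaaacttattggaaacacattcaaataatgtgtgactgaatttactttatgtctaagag
Orc6, chr8:85299382-85299681, plus strand: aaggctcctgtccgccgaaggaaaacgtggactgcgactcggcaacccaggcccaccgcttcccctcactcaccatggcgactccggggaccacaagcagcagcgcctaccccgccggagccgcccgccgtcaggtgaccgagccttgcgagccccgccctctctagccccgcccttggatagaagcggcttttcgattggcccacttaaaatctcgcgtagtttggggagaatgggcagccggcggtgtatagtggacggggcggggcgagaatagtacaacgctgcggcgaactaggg

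In Mcm6 a pair of these words, on opposite strands, overlap from position -110 relative to the start, and a further one begins at -47. In Mcm3 both words lie after the start, beginning at 19 and 38, and in Rfc3 they begin at -10 and 0.

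Origins are marked by the origin recognition complex, and of its subunits Orc3 and Orc4 varied least between libraries. Orc3, a core subunit (ENSMUSG00000040044; mm10 chromosome 4, 34570796 to 34614944, minus strand), was at 25 to 34.4 CPM in wild type (median 29.2) and at 26.2 to 34.6 CPM in Sgo1-/+ (median 29.7). These ranges coincided almost fully, and the log2 change was 0.024 ± 0.11 (SE). Orc4 was as steady, at 16.3 to 24.6 CPM in wild type and 21.2 to 24.5 CPM in Sgo1-/+. The SD of log2 CPM within a genotype was 0.16 for both genes. Orc1, the largest subunit, varied more, from 1.6 to 5.36 CPM in wild type, with the top value in replicate 2, and from 2.06 to 3.96 CPM in Sgo1-/+. Orc2 and Orc5 had log2 changes of 0.18 ± 0.27 and 0.11 ± 0.19 (SE). The steadier genes were also the deeper ones, with mean counts of 237 for Orc3 and 178 for Orc4. Mean counts were 72.7 for Orc2, 70.7 for Orc5, 45.5 for Orc6 and 26.5 for Orc1. The part of depth in this spread was not tested.

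Orc6, the smallest and most loosely held subunit, was the 1 member lower in Sgo1-/+ at an unadjusted p under 0.05 in edgeR. Orc6 (ENSMUSG00000031697; mm10 chromosome 8, 85299632 to 85308278, plus strand) was at 5.07 to 10.1 CPM in wild type (median 7.01) and at 2.99 to 6.73 CPM in Sgo1-/+ (median 5.10). All 6 Sgo1-/+ libraries were below the wild type median, and 3 wild type libraries, at 5.07, 5.20 and 6.51 CPM, lay within the Sgo1-/+ range. The log2 change was -0.52 ± 0.23 (SE; edgeR adjusted p = 0.539). It was -0.88 among the libraries without the suffix and 0.22 among those with it, so the direction did not hold within both sets. Its highest wild type values, 10.1 and 8.54 CPM, were in replicates 5 and 3, which had the most mitochondrial-like counts in that genotype. With that share as a covariate the value was -0.39.

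The loaders CDC6 and CDT1 bring the helicase to origins, and both of their transcripts were sparse. Cdc6 was at 1.01 to 3.26 CPM in wild type (median 1.55) and at 1.44 to 2.97 CPM in Sgo1-/+ (median 2.44), on a mean of 18.2 counts. The 2 groups overlapped over most of that range, with a log2 change of 0.31 ± 0.32 (SE). Cdt1 was at 2.26 to 8.62 CPM in wild type (median 4.91) and at 3.23 to 8.32 CPM in Sgo1-/+ (median 5.27), and its log2 change was 0.12 ± 0.36 (SE).

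All 6 subunits of the MCM2-7 helicase were on the higher side in Sgo1-/+, with log2 changes from 0.18 for Mcm7 to 0.65 for Mcm3 and a median of 0.22, and none at an unadjusted p under 0.05 in edgeR. Mcm3 (ENSMUSG00000041859; mm10 chromosome 1, 20802974 to 20820278, minus strand) was at 1.73 to 11.2 CPM in wild type (median 3.74) and at 2.77 to 13.2 CPM in Sgo1-/+ (median 7.41). Wild type replicate 2 was the second highest of all 12 libraries and Sgo1-/+ replicate 3 the second lowest, so the ranges overlapped widely. Even so, 5 of the 6 Sgo1-/+ libraries were above the wild type median. The log2 change was 0.65 ± 0.43 (SE; edgeR adjusted p = 0.658), and it was 0.12 among the libraries without the suffix and 2.08 among those with it. Mcm6, the subunit with the highest level (ENSMUSG00000026355; mm10 chromosome 1, 128331591 to 128359656, minus strand), was at 8.95 to 28.7 CPM in wild type (median 15.1) and at 15.7 to 22.9 CPM in Sgo1-/+ (median 19.3). The Sgo1-/+ values lay inside the wild type range, and each was above the wild type median. Its log2 change was 0.20 ± 0.24 (SE). Mcm2, Mcm4, Mcm5 and Mcm7 had values of 0.24 ± 0.28, 0.33 ± 0.36, 0.19 ± 0.30 and 0.18 ± 0.23 (log2 change ± SE). As a group the ring genes deviated by 0.78 log2 in wild type replicate 2 and by -0.89 in wild type replicate 6, a wider range than for the origin recognition complex, which ran from -0.19 to 0.21.

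Among the activators, Cdc45 had the highest log2 change and Gins4 the lowest. Cdc45 (ENSMUSG00000000028; mm10 chromosome 16, 18780447 to 18811987, minus strand) was at 1.01 to 2.97 CPM in wild type (median 1.55) and at 1.85 to 5.37 CPM in Sgo1-/+ (median 2.89). All 6 Sgo1-/+ libraries were above the wild type median, with replicates 2 and 6 highest at 5.37 and 4.22 CPM, while wild type replicates 2 and 4 reached into the Sgo1-/+ range. The log2 change was 0.87 ± 0.35 (SE; edgeR adjusted p = 0.530) on a mean of 21.8 counts, and it was 0.59 without the suffix and 1.47 with it. Gins2 was flat, at 20.8 to 27.1 CPM in wild type (median 22.9) and at 21.5 to 28.9 CPM in Sgo1-/+ (median 23.1), a log2 change of 0.032 ± 0.11 (SE). In GENCODE M21, 67.3% of the exon bases of Gins2 are shared with Gse1 on the opposite strand. Since no source tells if counting used strand, reads from the shared bases cannot be told apart here, while those from the other Gins2 bases can. Gins3 and Gins4 had values of -0.14 ± 0.39 and -0.35 ± 0.20, and Mcm10, a factor that helps start the helicase, a value of -0.024 ± 0.24 (log2 change ± SE). Gins4 was at 5.03 to 12.1 CPM in wild type (median 10.9) and at 6.00 to 9.52 CPM in Sgo1-/+ (median 7.52). All 6 Sgo1-/+ libraries were thus below its wild type median. Gins1, which was not tested, was at 0.533 to 1.53 CPM in wild type and 0.551 to 1.86 CPM in Sgo1-/+.

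The primer-making complex was on the higher side in 4 of 4 members. Prim1, the catalytic subunit of primase, was at 1.51 to 7.76 CPM in wild type (median 4.19) and at 4.40 to 8.20 CPM in Sgo1-/+ (median 6.01). Each Sgo1-/+ library was above the wild type median, and the log2 change was 0.48 ± 0.31 (SE). Pola2, the regulatory subunit of polymerase alpha, was at 4.62 to 13.3 CPM in wild type (median 8.51) and at 5.99 to 12.5 CPM in Sgo1-/+ (median 9.49), with a log2 change of 0.096 ± 0.25 (SE). Pola1 and Prim2 had values of 0.16 ± 0.27 and 0.33 ± 0.33 (log2 change ± SE).

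Subunits of the 2 extending polymerases showed the largest group median, 0.39 over 4 genes. Pold2, the second subunit of polymerase delta (ENSMUSG00000020471; mm10 chromosome 11, 5872180 to 5878292, minus strand), was at 4.53 to 16.4 CPM in wild type (median 8.09) and at 9.93 to 14.6 CPM in Sgo1-/+ (median 13.5). Sgo1-/+ libraries were tightly grouped above the wild type median, while wild type replicate 2 was higher than all of them. The log2 change was 0.48 ± 0.25 (SE; edgeR adjusted p = 0.572). Pold1, the catalytic subunit, had a similar pattern, from 2.02 to 9.29 CPM in wild type and from 5.26 to 8.54 CPM in Sgo1-/+, with a log2 change of 0.52 ± 0.30 (SE). Pole, the catalytic subunit of polymerase epsilon, was at 3.46 to 8.91 CPM in wild type (median 5.67) and at 5.40 to 9.93 CPM in Sgo1-/+ (median 6.95), a log2 change of 0.30 ± 0.24 (SE). Its partner Pole2 was at -0.12 ± 0.30 (log2 change ± SE).

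PCNA is the clamp that holds polymerases on DNA, and replication factor C loads it. Pcna (ENSMUSG00000027342; mm10 chromosome 2, 132249162 to 132253314, minus strand) was at 23.9 to 43.4 CPM in wild type (median 35.0) and at 17.8 to 44.3 CPM in Sgo1-/+ (median 40.2). The lowest library of each genotype was replicate 3, and the log2 change was 0.025 ± 0.21 (SE). Rfc3, a small subunit of the loader (ENSMUSG00000033970; mm10 chromosome 5, 151642756 to 151651242, minus strand), was at 1.26 to 5.07 CPM in wild type (median 3.67) and at 3.70 to 7.33 CPM in Sgo1-/+ (median 5.32). All 6 Sgo1-/+ libraries were above the wild type median, and 3 of them were above every wild type library. Its log2 change was 0.62 ± 0.30 (SE; edgeR adjusted p = 0.551). The other 4 loader subunits ran from -0.13 ± 0.15 for Rfc2 to 0.31 ± 0.42 for Rfc4 (log2 change ± SE). Rfc5 was steady, at 14.5 to 19.3 CPM in wild type and 12.3 to 18.7 CPM in Sgo1-/+.

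**Figure D4:**
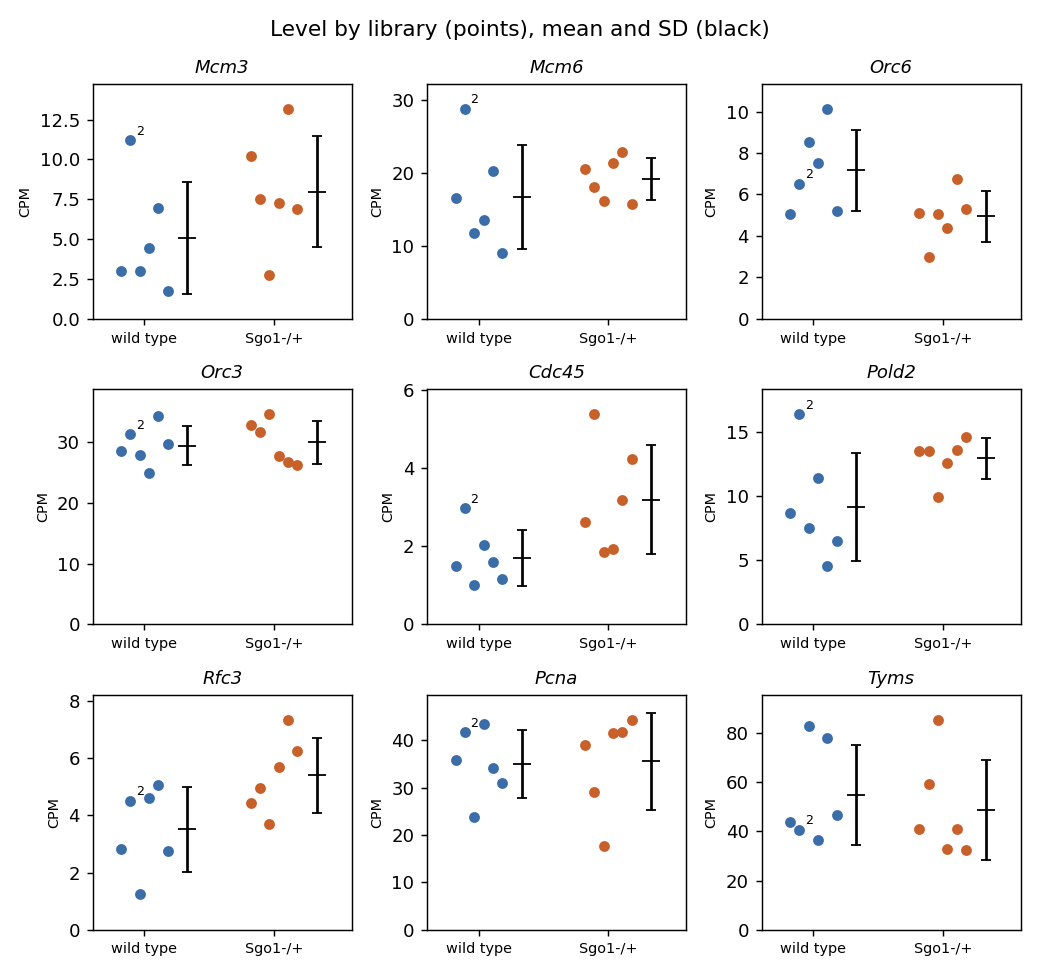
Level of 9 replication genes in each library (points, CPM, y axes start at 0) with the mean and SD of 6 libraries per genotype (black); the label 2 marks wild type replicate 2. The means of Pold2 and Cdc45 are higher in Sgo1-/+ and that of Orc6 lower, with overlapping points, Orc3 is level, and 3 libraries stand high for Tyms.

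The single-strand binding protein and the enzymes that finish Okazaki fragments had log2 changes from -0.14 to 0.35. Rpa1, the large subunit of the binding protein, was at 10.1 to 19.4 CPM in wild type (median 13) and at 10.4 to 19.8 CPM in Sgo1-/+ (median 16.4), with a log2 change of 0.23 ± 0.19 (SE). Rpa3, the small subunit, was at 5.65 to 8.94 CPM in wild type (median 5.82) and at 3.23 to 8.46 CPM in Sgo1-/+ (median 7.08), a log2 change of 0.056 ± 0.22 (SE), and Rpa2 was at -0.14 ± 0.22. The groups overlapped widely for all 3 genes. Lig1, the ligase that seals the fragments, was at 9.23 to 19.4 CPM in wild type (median 10.8) and at 12.1 to 18.2 CPM in Sgo1-/+ (median 15.5). Each Sgo1-/+ library was above the wild type median, and the log2 change was 0.31 ± 0.19 (SE). Fen1, which trims the flap before sealing, was at 1.88 to 4.53 CPM in wild type (median 2.92) and at 2.08 to 4.85 CPM in Sgo1-/+ (median 3.90), a log2 change of 0.35 ± 0.26 (SE). Fen1 shares 78.8% of its exon bases with the antisense gene Gm10143, so its counts are uncertain.

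Of the 4 genes of nucleotide supply, Tyms was the 1 on the lower side. Tyms, encoding thymidylate synthase (ENSMUSG00000025747; mm10 chromosome 5, 30058202 to 30073617, minus strand), was at 36.3 to 82.7 CPM in wild type (median 45.1) and at 32.5 to 85.2 CPM in Sgo1-/+ (median 40.9). Its 3 highest libraries were Sgo1-/+ replicate 3 and wild type replicates 3 and 5, at 85.2, 82.7 and 77.9 CPM, and the next highest was Sgo1-/+ replicate 2 at 59.3 CPM. Those 3 are the libraries with over 40% of counts in mitochondrial-like rows, while Pcna was at 17.8, 23.9 and 34.1 CPM in them. The log2 change between genotypes was -0.17 ± 0.27 (SE), and 0.20 after adjustment for the mitochondrial-like share. Stretches of the longest Tyms transcript match other genes, among them Reep3 over 355 bases at 97.7% identity, and Tyms-ps, a pseudogene, over 677 bases at 95.6%, so its counts can include reads of other loci. Tk1, the thymidine salvage kinase, was at 5.77 to 16.6 CPM in wild type (median 11.9) and at 12.3 to 14.6 CPM in Sgo1-/+ (median 13.3). All 6 Sgo1-/+ libraries were above the wild type median, with a log2 change of 0.21 ± 0.21 (SE). Rrm1 and Rrm2, the subunits of ribonucleotide reductase, were at 0.27 ± 0.26 and 0.11 ± 0.31 (log2 change ± SE).

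Of the 84 other replication genes listed, 82 were tested, and 60 had a log2 change above 0 and 22 below (49.0% of all genes tested were above 0), with a median of 0.13. The test across all genes called 0 of them in edgeR and 0 in DESeq2, and at an unadjusted edgeR p under 0.05 there were 5 higher and 2 lower, where 4.31% and 4.73% of all genes were. The 3 with the smallest p on the higher side were Dut, Cad and Dnmt1. Dut, whose enzyme keeps uracil out of DNA, was at 7.22 to 11.3 CPM in wild type (median 8.00) and at 10.8 to 22.4 CPM in Sgo1-/+ (median 13). Only the top of the wild type range overlapped with Sgo1-/+, and the log2 change was 0.68 ± 0.20 (SE; edgeR adjusted p = 0.491). It was 0.66 without the suffix, 0.74 with it and 0.77 after adjustment for the mitochondrial-like share. Cad, the first enzyme of pyrimidine synthesis, was at 4.76 to 8.33 CPM in wild type and at 7.39 to 13.4 CPM in Sgo1-/+, a log2 change of 0.67 ± 0.20 (SE), with 0.54 without the suffix and 0.95 with it. Dnmt1, the maintenance DNA methyltransferase, had a log2 change of 0.67 ± 0.28 (SE). On the lower side were Cdc25a, a phosphatase that activates CDK2, at -0.35 ± 0.13, Rb1, which restrains E2F factors, at -0.29 ± 0.11, and Pold3, a subunit of polymerase delta, at -0.32 ± 0.17 (log2 change ± SE). Scaled by total counts alone these 3 were at -0.0070, 0.020 and 0.027. That scaling moved the median of all genes to 0.31, and that of the 42 replication genes to 0.47.

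Levels were also compared between genes per kilobase of exon, as CPM per kb. Pcna was first, at 14.6 ± 2.99 in wild type and 14.8 ± 4.25 in Sgo1-/+ (CPM per kb, SD, n = 6 each). Tyms followed at 8.97 ± 3.32 and 7.98 ± 3.35, then Gins4, Pold2, Gins2, Rpa3 and Orc3, whose means over all libraries ran from 6.57 down to 4.89, neighbours within their spread. The level of Gins2 may include reads of Gse1, which shares 67.3% of its exon bases. Cdc6 was last at 0.356 ± 0.160 and 0.449 ± 0.123, after Prim2, Gins3 and Pole. Subunits of 1 complex were not at 1 level. Within the MCM ring, whose 6 proteins are present once each, Mcm6 was at 3.57 ± 1.52 CPM per kb in wild type and Mcm2 at 1.14 ± 0.388, with Mcm7, Mcm5, Mcm4 and Mcm3 between and each neighbouring pair within its SD. Within the origin recognition complex Orc3 was at 4.84 ± 0.526 and Orc1 at 0.838 ± 0.367 in wild type, ranges that did not meet. Exon lengths were those of all annotated exons in GENCODE M21, which counts bases that the transcripts of this tissue may not hold.

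**Figure D5:**
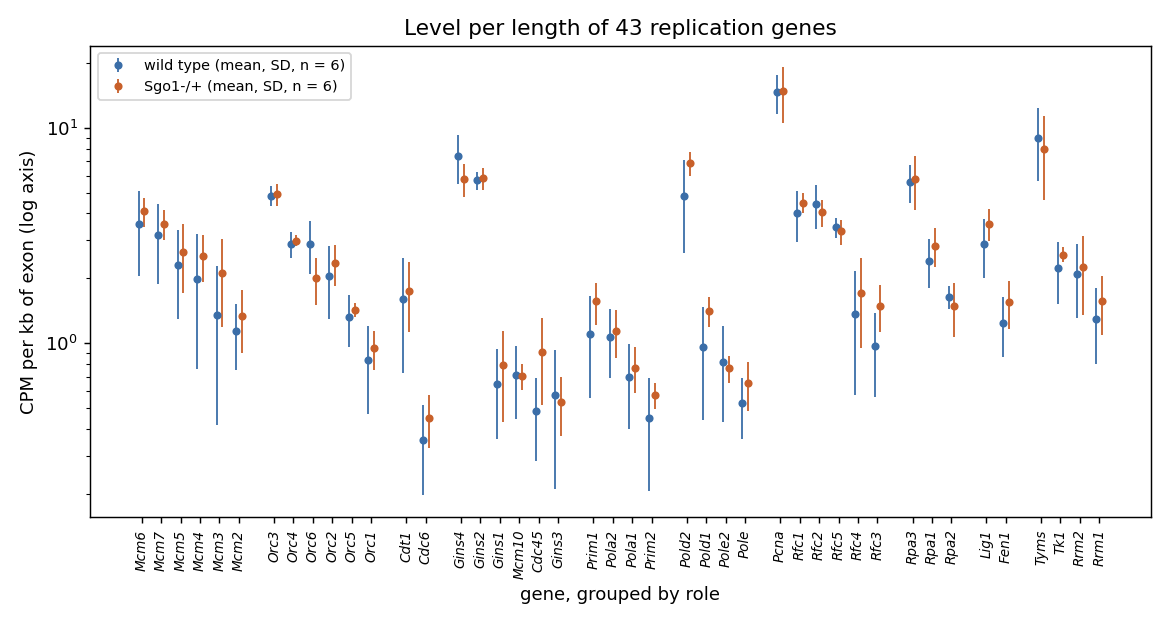
Level per kilobase of exon of all 43 genes (y axis: CPM per kb, log axis; points: mean, bars: SD, n = 6 each), grouped by role and sorted within each. Pcna is highest at 14.6 in wild type, Cdc6 lowest at 0.356, and the genotypes overlap for nearly every gene.

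Some genes measured at similar depth differed in their spread between libraries, and others did not. Mcm4 and Orc5 rested on similar mean counts, 73.3 and 70.7, and their SD of log2 CPM within a genotype was 0.73 and 0.31. Mcm6 and Orc4, at 151 and 178 counts, had an SD of 0.44 and 0.16. Mcm2 and Orc2, at 74.4 and 72.7 counts, were alike, with an SD of 0.56 and 0.57. Over the role groups the median SD was highest for the loaders (0.57) and the MCM ring (0.55) and lowest for the single-strand binding protein (0.33), the origin recognition complex (0.34) and the clamp group (0.34). These groups were not matched for depth. Mean counts were 18.2 for Cdc6 and 45.1 for Cdt1, 38.5 to 126 for the single-strand binding genes and 300 for Pcna. The part of depth in this order was not tested.

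Some counts are shared with other loci. Besides Gins2 and Fen1, Orc2 shares 29.8% of its exon bases with Nif3l1, Rfc2 shares 15.1% with Lat2, Rfc4 shares 12.6% with Eif4a2, Orc1 shares 10.8% with Gm12743 and Rfc5 shares 10.7% with Wsb2, each on the opposite strand. Mcm7 shares 7.25% with Ap4m1, Orc6 shares 6.93% with Vps35 and Cdc45 shares 5.96% with Ufd1. Pcna matches the pseudogene Pcna-ps2 over 781 bases at 99.2% identity, which had a mean of 5.00 counts beside 300.2 for Pcna. The longest transcript of Mcm7 matches Gm5487 over 2157 of its 2962 bases at 97.7% identity. Gm5487 has no row, so the level of Mcm7 can include its reads. Cdc6 matches Gm9430, with a mean of 0.167 counts, over 1260 bases at 95.2% identity.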

How the data were processed

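Purified mRNA of colonic mucosa was sequenced on an Illumina MiSeq from TruSeq V2 libraries, as the labels' protocols state. The submitters' processing notes name build mm10 and DESeq; aligner, counter and strand use: not given in the sources used here. The authors deposited expected counts in the raw column, 69.6% of values above 0 not being whole. The normalized column holds log2 values deposited by the authors: size factors by median of ratios, a floor of 1 and the gene median subtracted gave 100% of its 463104 values within 0.001. It was not used for tests. Counts were rounded, and 505 rows without an Ensembl identifier (1.79% to 5.40% of counts) were left out.

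The members and lists were chosen with earlier results of these data known. One fit over 13889 genes (edgeR 4.0.16, glmQLFit and glmQLFTest, TMM, filterByExpr with a minimum count of 10 and total of 15, R 4.3.3) gave log2 changes and Benjamini-Hochberg adjusted p-values with a threshold of 0.05. The SE is the absolute log2 change divided by the square root of F. Genes with full values are, per role, the member with the smallest p and that with the highest level. Of the other replication genes, the 3 with the smallest p in each direction at a mean of at least 10 counts are named. Others named were chosen after their values were seen. DESeq2 1.42.0, limma-voom (limma 3.58.1), other scalings, filters and libraries were alternatives. The fit was tested on simulated data, with changed genes at a mean of at least 10 counts. It recovered 45% of 100 genes changed by a log2 of 1 and 91% of 100 changed by 2. Of its 143 calls, 7 were false. Smaller changes were not simulated, and the largest among the members was 0.87, so changes of that size can be missed. Similar transcripts were found with blastn 2.17.0 at 95% identity over 200 bases. No pair of libraries within a genotype held identical values. Counts this low limit the precision for genes near 1 CPM.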

Additional observations from a re-analysis of the deposited data

Results flagged for a closer look

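In groups of 6 libraries a value was taken up here when its gap to the nearest other was more than 0.625 of the group's range, which chance gives in about 1 in 20 groups. Of 88 groups (43 replication genes and Sgo1 in each genotype) 5 did so, each in wild type. Orc1 and Rfc1 were high in wild type replicate 2, at 5.36 and 36.8 CPM. Orc2 and Gins4 were low in wild type replicate 3, at 2.51 and 5.03 CPM, where Orc2 rested on 9.99 counts. Rpa3 was high in wild type replicate 4, at 8.94 CPM.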

How the results depend on the processing

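Under the 25 other settings no replication gene and no other gene of the pathway passed an adjusted p of 0.05. The count over all genes was 30 with DESeq2, and 1 each within libraries with the suffix and when adjusting for the mitochondrial-like share. Between 23 and 40 members had a log2 change above 0. Leaving out single libraries gave 30 to 37, a median of 0.079 to 0.37, and 0 to 11 members at an unadjusted p under 0.05 in edgeR, where 2 was the count with all libraries and the 11 came without wild type replicate 2. That count was 1 with no filter, with the suffix as a covariate, within libraries without it, with the mitochondrial-like share and in limma-voom. Over all genes the share at that level was 8.18%, 8.96%, 3.98%, 9.66% and 10.17% in these settings, in that order. The count of members was 10 within libraries with the suffix and 4 with the replicate block. The share of all genes at that level was 14% within libraries with the suffix, 11.8% with the block and 13.4% without wild type replicate 2, and 9.04% with all libraries, so that 4 of 42 under the block is no more than genes at large. The median was 0.47 scaled by total counts alone and 0.51 within libraries with the suffix. The cause was not tested.

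The difference in Sgo1 ran from -0.69 to -0.29 without single libraries. Of 20 genes with full values, 10 kept their direction in every setting. Within libraries without the suffix, Cdc6 was at -0.14, Cdt1 at -0.10, Pola2 at -0.17, Pcna at -0.16 and Rpa3 at -0.094. Within those with it, Orc6 was at 0.22 and Orc3 at -0.14. With the mitochondrial-like share, Cdt1 was at -0.15, Gins2 at -0.0024, Pcna at -0.28, Rpa1 at -0.019, Rpa3 at -0.098 and Tyms at 0.20. Tyms was at 0.15 scaled by total counts, and Pcna at -0.0076 with the replicate block. Leaving out single libraries, Cdt1 ran from -0.015 to 0.38, Pcna from -0.057 to 0.16, Orc3 from -0.018 to 0.076, Pola2 from -0.036 to 0.25, Gins2 from -0.018 to 0.084 and Rpa3 from -0.012 to 0.18.

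Replicate numbers are shared between genotypes, but same-numbered libraries correlated at -0.30 to 0.45 in their deviations and only replicate 3 correlated best with its own number, so the block has no basis in the design. The run without the 3 libraries rich in mitochondrial-like rows was chosen after seeing the data. Few counts limit what can be seen for Gins1, Gins3, Cdc6, Pole2, Rfc4 and Cdc45.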
